A study of Mus musculus with 6 samples.

Results

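The genes described here are 9 markers of the B lineage: Jchain, Mzb1, Pou2af1, Cd79a, Cd79b, Ms4a1, Pax5, Blnk and Cr2. They were followed on whole-genome expression arrays of mouse colon through every probe whose RefSeq accession names them, which came to 11 of the 56605 different probes and 9 of the 23462 named genes on the array. Cr2 had 3 probes and each of the other genes had 1. The arrays held colon RNA of 6 male mice, 3 labelled as controls and 3 as Islr knockout, with 1 array per animal. Islr encodes a secreted protein with leucine-rich repeats and an immunoglobulin domain. The sample source states that all animals, controls included, had drunk 3.5% dextran sulfate sodium, which injures the colonic epithelium, for 5 days and had then recovered for 1 day, whereas the treatment field of the same labels says that none was given. The design text says that the samples were separated by flow before extraction, without naming a marker, yet epithelial, stromal and leukocyte markers were all measured. The labels give neither the strain, the age nor the cells in which Islr was deleted.

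B cells recognise antigen through a membrane immunoglobulin that signals through the paired chains Cd79a and Cd79b. In the colon, naive B cells sit in lymphoid follicles and patches, and their activated descendants become plasma cells of the lamina propria that secrete mostly IgA. Maturation into a plasma cell switches genes off as well as on: Pax5 and Ms4a1 belong to the B cell stage, whereas Jchain and Mzb1 serve antibody assembly and export. The 9 genes therefore cover separate stages of one lineage and several cell types may contribute to each.

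No member passed the test between genotypes, and for most of them animals of one genotype differed from each other more than the genotypes did. To show the members behind the main patterns, the 250 bases upstream of the annotated gene start are printed for Cd79a, whose signal varied most of the members between animals, for Jchain, whose signal varied least of them, and for Blnk, the only member that was higher in the knockout. Both rankings of spread kept the spots with an outlier mark of the scanner software. The sequences are those of RefSeq on GRCm38.p6, in the direction of the gene. A sequence was kept for 6 of the 9 members, and none for Mzb1, Cd79b and Ms4a1. Capitals mark the octamer ATGCAAAT or its reverse complement ATTTGCAT, the element read by the POU factors that Pou2af1 assists.
Cd79a (chr7:24897247-24897496, strand +): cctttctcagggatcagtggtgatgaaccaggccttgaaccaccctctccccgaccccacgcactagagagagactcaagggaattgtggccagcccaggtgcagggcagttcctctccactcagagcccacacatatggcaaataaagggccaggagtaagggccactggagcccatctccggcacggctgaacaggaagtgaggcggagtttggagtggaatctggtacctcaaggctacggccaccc
Jchain (chr5:88527898-88528147, strand -): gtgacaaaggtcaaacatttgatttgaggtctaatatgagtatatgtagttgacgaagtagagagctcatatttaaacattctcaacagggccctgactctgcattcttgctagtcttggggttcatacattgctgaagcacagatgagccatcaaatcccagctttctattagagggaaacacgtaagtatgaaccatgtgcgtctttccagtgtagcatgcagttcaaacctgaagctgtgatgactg
Blnk (chr19:40994222-40994471, strand -): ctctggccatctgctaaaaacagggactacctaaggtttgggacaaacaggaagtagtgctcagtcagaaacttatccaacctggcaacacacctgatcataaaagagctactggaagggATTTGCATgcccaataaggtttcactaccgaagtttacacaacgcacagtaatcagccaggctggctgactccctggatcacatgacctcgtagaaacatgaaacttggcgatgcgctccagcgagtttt
The octamer occurred in 1 of the 6 member promoters, that of Blnk, from 130 to 123 bases upstream of the start on the reverse strand, and in 1.6% of all 32851 promoter windows of this length. The palindromic EBF1 core, TCCC and GGGA separated by any 2 bases, was found in 0 of the 6 and in 0.779% of all windows, and TATAAA, read on both strands, in 0 of the 6 and in 12.4% of all windows. None of these motifs overlapped another in the member promoters.

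The probe of Islr checked the labels: scaled to the 75th percentile of each array, its log2 level read 1.57, 1.24 and 1.21 in controls against -1.40, -0.93 and -1.31 in knockouts, so the groups stood well apart. All 12 colon epithelium markers were well above background on all 6 arrays, as were the defining B cell genes. Each array had between 69.4% and 75.4% of its spots well above background. Between 3.26% and 16.0% of spots carried an outlier mark of the scanner software and were treated as missing in the test. This share was 16.0% in knockout replicate 1, 13.6% in control replicate 1 and 9.05% in knockout replicate 2. It was at most 3.94% on the other arrays. All 6 arrays lay on 1 slide, with the controls in row 1 and the knockouts in row 2, so slide row and genotype cannot be told apart. In the test across 35351 probes, limma with Benjamini-Hochberg adjustment called 3.97% of probes at a 5% false discovery rate. Levels below are log2 signals relative to the 75th percentile of the array, differences are knockout minus control on that scale, and a level of one gene is never set against that of another.

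Jchain, which encodes the joining chain of polymeric IgA and IgM, had a processed signal of 51751, 52604 and 50821 intensity units in the controls (replicates 1 to 3 in order, here and below) against 31352, 30806 and 35850.4 in the knockouts. Relative to the 75th percentile, the log2 levels were 3.03, 2.89 and 2.96 in controls against 2.67, 2.40 and 2.63 in knockouts. Every knockout lay below every control, with a gap of 0.21. The probe could not be tested in the fit over the array, because its spot carried an outlier mark in control replicate 1 and in all 3 knockouts. With these spots kept, the difference was -0.39 (SE 0.15, 95% interval -0.75 to -0.02), a 1.31-fold lower signal, and limma gave an adjusted p of 0.161. The exact permutation test over the 6 animals gave p = 0.1, the smallest value 3 against 3 can give, and in that setting 17.6% of all probes had every knockout below every control.

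Mzb1 encodes a chaperone-like protein of the endoplasmic reticulum that helps immunoglobulin assembly. Its levels were 1.03, 1.91 and 2.25 in controls against 0.85, 1.55 and -0.17 in knockouts. Control replicate 1 lay below knockout replicate 2, so the groups overlapped. The difference was -0.98 (SE 0.50, 95% interval -2.17 to 0.20), a 1.98-fold lower mean in the knockout that did not pass (limma adjusted p = 0.255).

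Pou2af1 encodes the coactivator that octamer-binding factors use in B cells and plasma cells. Its levels were 1.68, 2.29 and 2.41 in controls against 1.19, 1.96 and 0.51 in knockouts. The order of the animals was that of Mzb1, with control replicate 1 again below knockout replicate 2. The difference was -0.90 (SE 0.39, 95% interval -1.84 to 0.03) and did not pass (limma adjusted p = 0.199). It was the lowest adjusted p among the tested members.

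**Figure D1:**
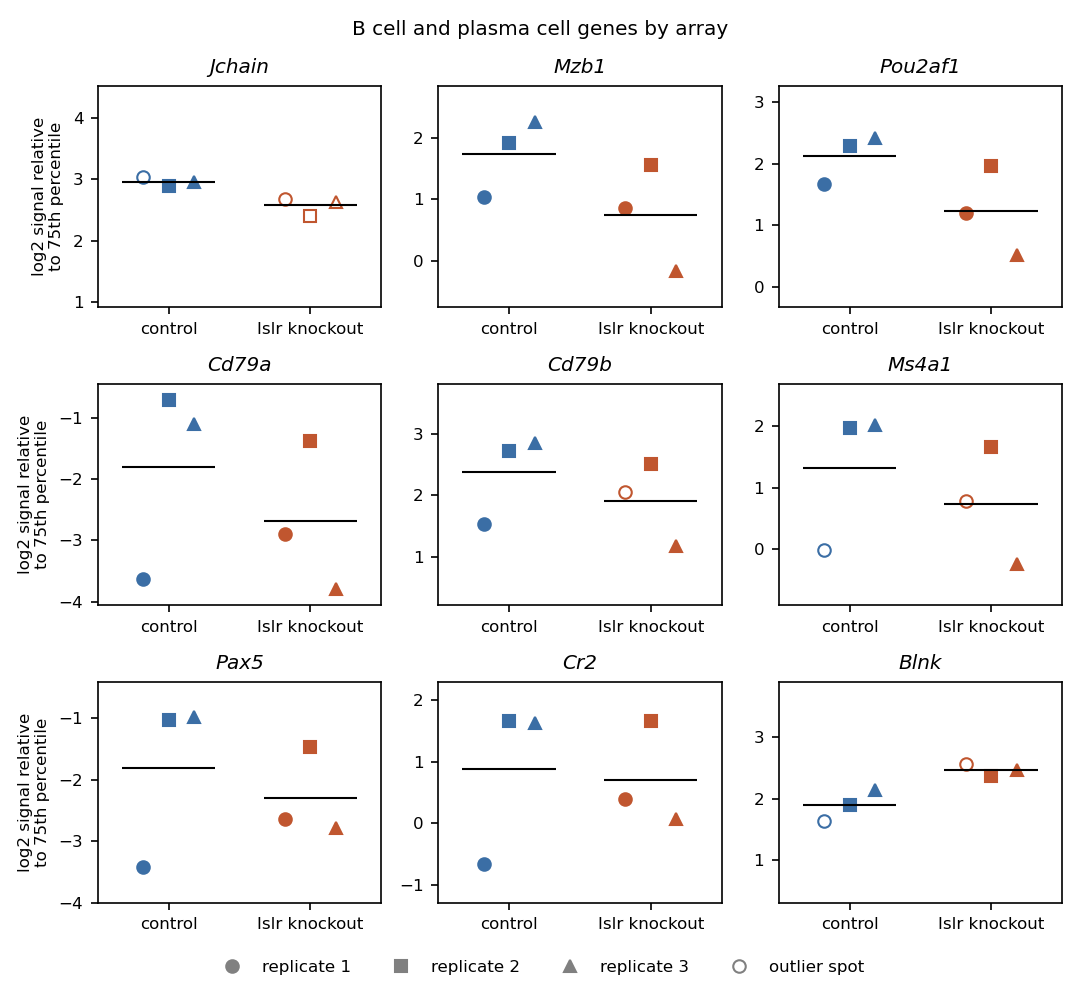
Each panel shows 1 gene, with the log2 level, scaled to the 75th percentile of the array, on the vertical axis (all panels span the same range), the 3 controls on the left and the 3 Islr knockouts on the right, a symbol per replicate, and a line at the group mean; open symbols are spots with an outlier mark. Control replicate 1 is the lowest control in all panels but Jchain, and knockout replicate 2 the highest knockout in all but Jchain and Blnk.

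Cd79a encodes one signalling chain of the B cell receptor. Its processed signal was 516, 4332 and 3045 intensity units in the controls and 659, 2233 and 418 in the knockouts. The log2 levels were -3.62, -0.71 and -1.10 in controls against -2.90, -1.38 and -3.79 in knockouts. Control replicate 1 was nearly as low as knockout replicate 3, the lowest of all, and the controls alone spanned 7.49-fold. The difference between the genotypes was -0.88 (SE 0.90, 95% interval -3.03 to 1.28), far inside that spread (limma adjusted p = 0.569).

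Cd79b, the partner chain, had levels of 1.54, 2.72 and 2.85 in controls against 2.05, 2.51 and 1.17 in knockouts. The same animals were high and low as for Cd79a, over a narrower range of 3.21-fold across all 6 arrays. The spot of knockout replicate 1 was left out of the fit, which gave a difference of -0.53 (SE 0.56, 95% interval -1.92 to 0.86) and an adjusted p of 0.584 in limma.

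Blnk encodes the adaptor that carries the signal from the receptor's kinase to its downstream enzymes, and macrophages express it too. Its levels were 1.65, 1.91 and 2.15 in controls against 2.57, 2.37 and 2.47 in knockouts. Every knockout lay above every control, the reverse of Jchain. The fit left out control replicate 1 and knockout replicate 1 and gave 0.39 (SE 0.21, 95% interval -0.16 to 0.95, limma adjusted p = 0.310). With those spots kept the difference was 0.57 (SE 0.18, 95% interval 0.14 to 1.00), a 1.48-fold higher signal, with a limma adjusted p of 0.104 and an exact permutation p = 0.1. In that setting 17.3% of all probes had every knockout above every control.

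Ms4a1 encodes CD20, a surface protein of B cells that plasma cells lose. Its levels were -0.01, 1.98 and 2.02 in controls against 0.78, 1.66 and -0.23 in knockouts. Control replicate 1 and knockout replicate 1 carried outlier marks, and without them the difference was -1.28 (SE 0.65, 95% interval -2.99 to 0.42, limma adjusted p = 0.284). With both spots kept it was -0.59 (SE 0.68, limma adjusted p = 0.605), and control replicate 1 lay below knockout replicates 1 and 2.

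Pax5 encodes the transcription factor that holds cells in the B lineage. Its levels were -3.42, -1.03 and -0.99 in controls against -2.64, -1.46 and -2.78 in knockouts. The lowest of all 6 animals was a control, replicate 1, at 5.41-fold below control replicate 3. The difference was -0.48 (SE 0.71, 95% interval -2.19 to 1.22, limma adjusted p = 0.700).

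Cr2 encodes a complement receptor carried by mature B cells and by the follicular dendritic cells of lymphoid follicles. At its brightest probe (A_55_P1971729) the levels were -0.66, 1.67 and 1.63 in controls against 0.40, 1.66 and 0.07 in knockouts. Control replicate 1 was again the lowest animal, and knockout replicate 2 reached the level of the other two controls. The difference was -0.17 (SE 0.72, 95% interval -1.88 to 1.54, limma adjusted p = 0.900), and the further probes gave -0.14 and -0.29. After centring each probe on its own mean, the 3 probes differed by at most 0.26 on any array, so the differences between animals were repeated by separate spots.

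Over the members, 0 of the 10 tested probes and 0 of the 8 tested genes were called by limma, and 0 of them had an unadjusted p under 0.05. Among all 16451 tested named genes, each by its brightest tested probe, 3.81% were called and 28.2% had an unadjusted p under 0.05 (26.8% of all tested probes). With outlier spots kept, Blnk (limma unadjusted p = 0.0166) and Jchain (limma unadjusted p = 0.0401) fell under 0.05, and no member probe was called. Of the 8 tested genes, 7 had a lower mean in the knockout and the median difference was -0.70, against a median of 0.01 over all tested genes, of which 48.8% were lower. The intervals of Cd79a, Pax5 and Cr2 reached from more than 1.8 below 0 to more than 1.2 above it, so a lack of difference is not shown either. In RNA from mixed cells, fewer cells of a type and less RNA per cell cannot be told apart.

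**Figure D2:**
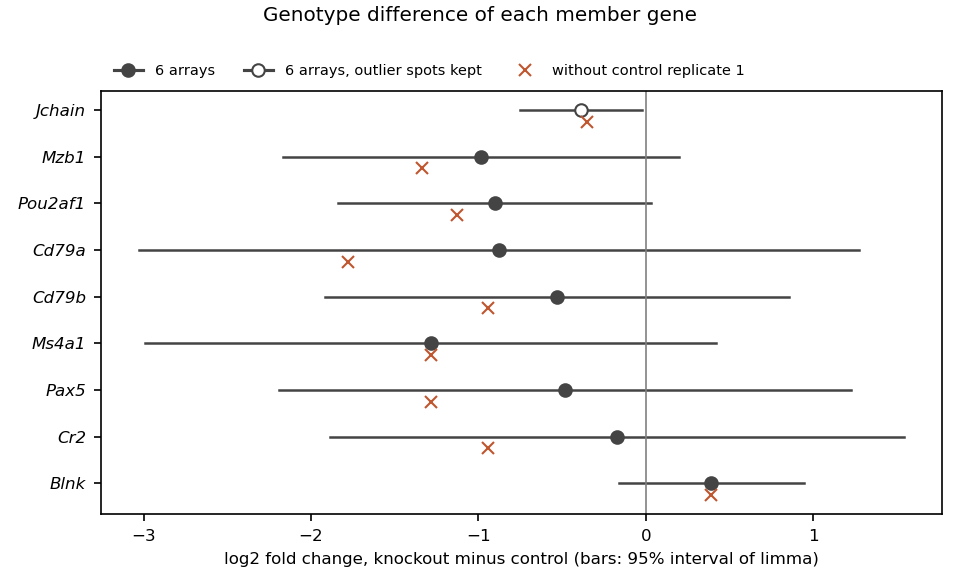
Each row gives the log2 difference between knockout and control for 1 gene with the 95% interval of limma. The open circle (Jchain) is the fit with outlier spots kept, and crosses are the same gene without control replicate 1; the intervals of the 8 tested genes include 0, and Cd79a shifts from -0.88 to -1.78 without that control.

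Single animals moved these differences. Without control replicate 1 the difference became -1.78 for Cd79a, -1.29 for Pax5, -0.94 for Cr2 and -0.95 for Cd79b, and the median of the members -1.21. Without knockout replicate 2 the median was -1.27 over the 5 members then tested. It shrank to -0.34 over 6 members when control replicate 2 was left out, -0.40 over 6 for control replicate 3 and -0.33 over 5 for knockout replicate 3. In these fits Cr2 turned to 0.22, 0.20 and 0.15. Medians over 5 or 6 members do not cover the same genes as the -0.70 over 8. In none of the 6 fits with an animal left out was a member probe called, and the lowest adjusted p of any member was 0.0843, for Pou2af1.

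The spread between animals of one genotype set most members apart from the bulk of the array. Outlier spots were kept for this spread. Pooled over both genotypes, the SD of the log2 level was 1.41 for Cd79a, 1.11 for Pax5, 1.11 for Cr2 and 1.06 for Ms4a1. The median over 36662 probes well above background on all arrays was 0.26, and these 4 genes lay above at least 98.3% of those probes. Mzb1 had an SD of 0.75, Cd79b of 0.70 and Pou2af1 of 0.58, above at least 90.3% of probes. Blnk, at 0.19, and Jchain, at 0.11, lay in the lower part of the distribution, above 31.0% and 9.01% of probes. Outlier marks lay on 4 spots of Jchain, 2 each of Blnk and Ms4a1 and 1 of Cd79b. Without its marked spots, Ms4a1 had an SD of 0.03 in controls and 1.34 in knockouts, from 2 values each. Jchain then had no usable knockout value.

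**Figure D3:**
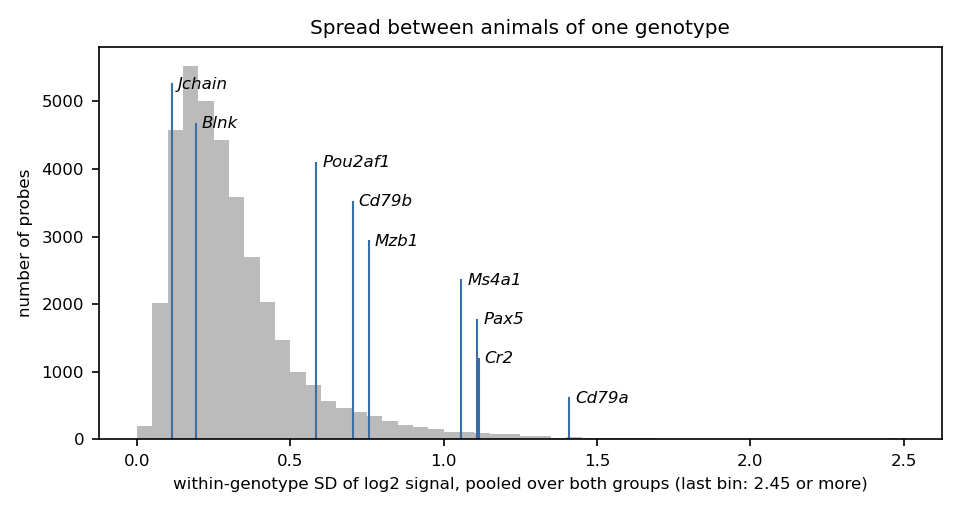
The grey bars count probes by the SD of their log2 signal between animals of the same genotype, pooled over both genotypes, and the blue lines place the 9 member genes at their own SD (line heights carry no value). Outlier spots were kept. Jchain and Blnk fall inside the main peak of the distribution, and the other 7 lie in its upper tail.

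The high and low animals were the same for most members. Control replicate 1 was the lowest control and knockout replicate 2 the highest knockout for 7 of the 9 members, the exceptions being Jchain and Blnk. This order was read from the members' own values, outlier spots included, and is a description of them. Among all 16759 named genes well above background on all arrays, 18.05% had this order. It was found for 13 of 14 other surface and antigen receptor genes of B cells, 12 of 14 B cell receptor signalling genes, 11 of 13 other B lineage transcription factors and 5 of 7 germinal centre genes. It was found for 9 of 20 genes of IgA transport, B cell survival and recruitment and for 5 of 25 genes of plasma cells and antibody secretion. The last list also holds genes of general protein secretion, so its share does not describe plasma cells alone. The differences between these shares were not tested.

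Most T cell markers varied along with the B cell genes, again with outlier spots kept. The same order held for 12 of 16 T cell markers and for 7 of 7 pan-leukocyte markers, which B cells share. It held for 1 of 12 macrophage markers, 0 of 8 neutrophil markers and 0 of 12 colon epithelium markers. The median level of the T cell markers, each gene centred on its mean over the animals, was -0.37, 0.45 and 0.28 in controls against -0.19, 0.31 and -0.44 in knockouts. For the other B cell surface genes these medians were -1.11, 0.90 and 0.91 in controls, and -0.29, 0.62 and -1.0 in knockouts 1, 2 and 3, a wider range. Their lowest animal was control replicate 1 and their highest control replicate 3, at 0.909 against 0.902 in control replicate 2. The T cell markers were lowest in knockout replicate 3 and highest in control replicate 2. The B cell receptor signalling and germinal centre genes had these same extremes. The members and the other B lineage transcription factors were lowest in knockout replicate 3 and highest in control replicate 3. The colon epithelium markers were lowest in control replicate 2, at -1.97, where B cell genes were high, and the part of tissue composition in the B cell differences was not tested.

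**Figure D4:**
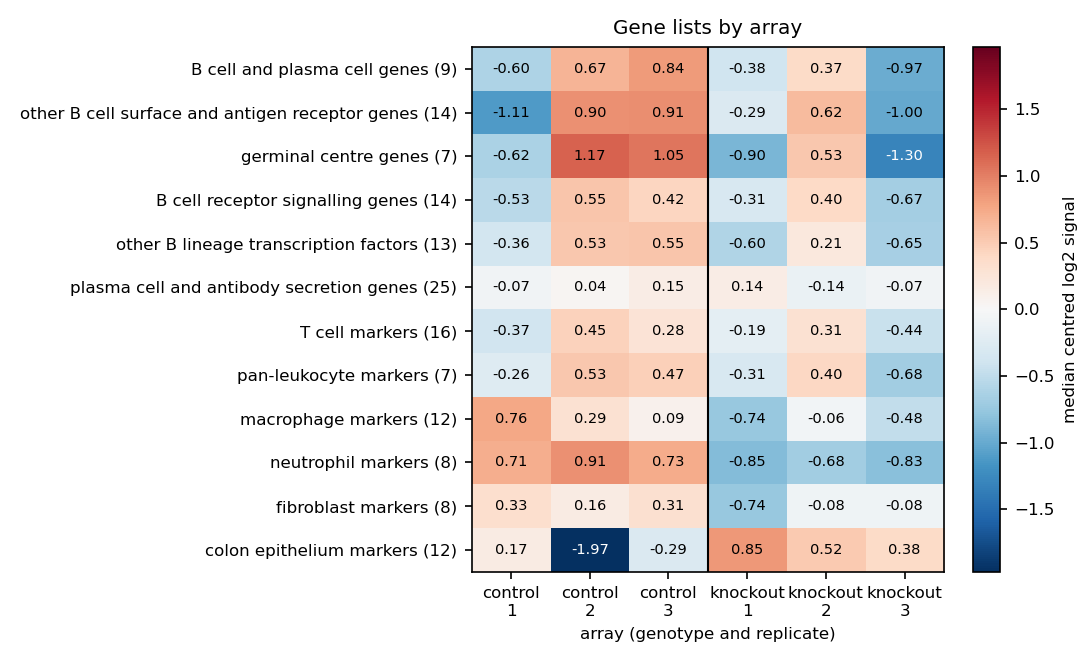
Each cell gives the median over a list's genes (number in brackets, genes well above background on all arrays) of the log2 signal after centring each gene on its mean over the 6 arrays; columns are animals, and red is higher. Outlier spots were kept. The B cell rows and the T cell and pan-leukocyte rows share low values in control 1, knockout 1 and knockout 3, whereas the neutrophil row is high in all controls and low in all knockouts.

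The wider B lineage and genes of IgA transport, B cell survival and recruitment were read from 6 lists, called the B lineage lists here. They held 99 genes, of which 88 had a tested probe. Of these, 7 were called by limma, all lower in the knockout, which is 7.95% against 3.81% of all tested genes (2.46% lower in the knockout). They were Fcrla, Ebf1, Id3, Tnfrsf17 and Derl3, with Tnfsf11 and Tgfb1 from the list of IgA transport, B cell survival and recruitment. Of the 88, 62 had a lower mean in the knockout. For 5 of the 7 called genes every knockout lay below every control, as for 19.4% of all genes usable on all arrays. These 5 were picked by their calls, so the lack of overlap adds no separate support. The calls of Fcrla and Ebf1 rested on the marks for outlier spots.

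Among 14 tested surface and antigen receptor genes of B cells, 13 had a lower mean, with a median of -0.44. Leaving out control replicate 1 moved this median to -1.23, and leaving out knockout replicate 3 to -0.04. The highest difference in the list was that of Cd180, a Toll-like receptor relative on B cells, at 0.49, and did not pass (SE 0.16, limma adjusted p = 0.119). Fcrla, an Fc receptor-like protein inside B cells, was called at -1.95 (SE 0.31, limma adjusted p = 0.0486) from 2 usable arrays in each group. Its levels on all arrays were -1.64, 1.38 and 1.37 in controls against -0.21, 1.07 and -0.94 in knockouts, with outlier marks on control replicate 1 and knockout replicate 2. These were the lowest control and the highest knockout, and with both kept the difference was -0.40 and the adjusted p 0.804.

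The receptor signalling list had 12 tested genes with a median of -0.31, 8 of them lower, and 0 were called (1 with an unadjusted p under 0.05). Btk, the kinase that activates phospholipase downstream of the receptor, had the lowest difference at -1.18 (SE 0.82, limma adjusted p = 0.397). Syk, the kinase that Cd79a and Cd79b recruit, had the highest at 0.45 (SE 0.15, limma adjusted p = 0.118), the same direction as Blnk. Leaving out control replicate 1 gave a median of -0.54, and leaving out control replicate 2 one of -0.10.

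Of 13 tested transcription factors, 10 were lower, with a median of -0.93, and 2 were called. The median shrank to -0.53 when knockout replicate 3 was left out and to -0.60 for control replicate 3, with 0 called by limma in either fit. Id3, an inhibitor of the E proteins that drive lymphocyte genes and a gene expressed by many cell types, had levels of 1.68, 1.76 and 1.88 in controls against 0.65, 0.91 and 0.60 in knockouts. All knockouts lay below all controls, and Id3 fell by 1.05 on the log2 scale (SE 0.16, limma adjusted p = 0.0319). Ebf1, which opens the B cell programme together with Pax5 and is also found in stromal cells, was called at -1.48 (SE 0.23, limma adjusted p = 0.0487) from 2 usable arrays in each group. Its outlier marks fell on control replicate 1, at -0.31, and knockout replicate 2, at 0.47, the only knockout above that control. With both kept the difference was -0.72 and the adjusted p 0.333.

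The 7 germinal centre genes, which mark B cells under selection in follicles, all had a lower mean in the knockout; their median difference was -1.40, and 0 were called (1 with an unadjusted p under 0.05). S1pr2, a receptor that keeps B cells in the germinal centre, had the largest difference at -1.89 (SE 0.42, limma adjusted p = 0.0572). Leaving out control replicate 1 moved the median to -2.07 and leaving out knockout replicate 2 to -2.09. It was -0.90 when control replicate 3 was absent, and -0.67 when knockout replicate 3 was.

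The 22 tested genes of plasma cells and antibody secretion were mixed, with a median of -0.12, 14 lower and 2 called. The list joins plasma cell genes with genes of general protein secretion, so its median does not describe plasma cells alone. Tnfrsf17, the survival receptor of plasma cells known as BCMA, had levels of -2.01, -1.49 and -1.99 in controls against -2.76, -3.71 and -3.75 in knockouts. Every knockout lay below every control, and Tnfrsf17 fell by 1.58 (SE 0.31, limma adjusted p = 0.0474), a 2.98-fold lower signal. Derl3, a component of the degradation pathway of the endoplasmic reticulum that secretory cells need, had levels of 0.14, 0.79 and 0.36 in controls against -0.92, -0.91 and -1.16 in knockouts. It fell by 1.42 (SE 0.21, limma adjusted p = 0.0306), again with no overlap. The general secretory regulator Xbp1, which epithelial cells also express, differed by -0.04 (SE 0.16, limma adjusted p = 0.899), and Prdm1, the repressor that ends the B cell programme, by -0.60 (SE 0.26, limma adjusted p = 0.194). Cd38 had the highest difference in this list, 1.11, and did not pass (SE 0.23, limma adjusted p = 0.0524).

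Among 20 tested genes of IgA transport, B cell survival and recruitment, 10 were lower and 10 higher, with a median of -0.02, and 2 were called. The sign of this median depended on single animals: it was -0.39 when control replicate 1 was left out and -0.30 for knockout replicate 2, but 0.22 for control replicate 2, 0.17 for control replicate 3 and 0.21 for knockout replicate 3. Tnfsf11, the cytokine RANKL that stromal cells and lymphocytes give to follicle epithelium, had levels of -1.34, -1.20 and -1.42 in controls against -4.43, -3.45 and -3.46 in knockouts. It fell by 2.46 (SE 0.29, limma adjusted p = 0.0229), 5.50-fold. Tgfb1, a cytokine for IgA switching made by many cells, had levels of -1.78, -1.27 and -1.81 in controls against -3.59, -2.61 and -3.14 in knockouts, and fell by 1.49 (SE 0.29, limma adjusted p = 0.0468). Ccl28, the epithelial chemokine for IgA plasma cells, had the highest difference at 3.26 and did not pass (SE 0.76, limma adjusted p = 0.0625). Pigr, the epithelial receptor that carries polymeric IgA into the lumen, differed by 0.31 (SE 0.16, limma adjusted p = 0.262).

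**Figure D5:**
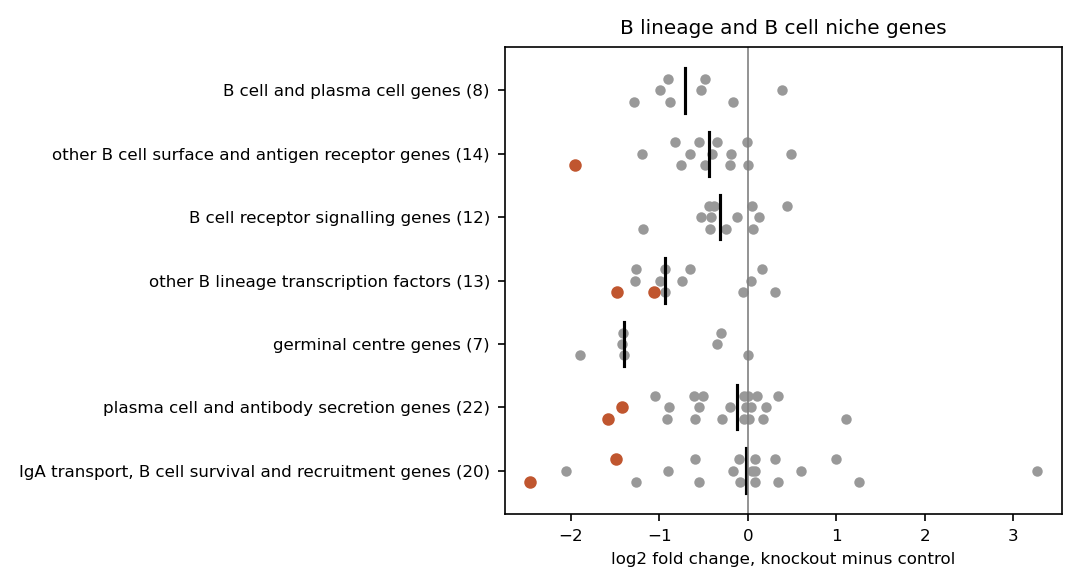
Each dot is the log2 difference between knockout and control of 1 tested gene, in rows by list (number of tested genes in brackets), with a black bar at the median; red dots passed the 5% false discovery rate of limma over all probes. The members include 0 red dots, and all 7 red dots of the other lists lie below 0.

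The calls depended on single animals, as did the number of calls over the whole array. Tnfsf11 stayed under an adjusted p of 0.05 in 3 of 6 limma fits with an animal left out, Derl3 and Id3 in 2 of 6 and Tnfrsf17 and Tgfb1 in 1 of 6, each keeping its direction in all 6. Over these fits the difference ranged from -1.90 to -1.40 for Tnfrsf17 and from -1.57 to -1.24 for Derl3. None of these 5 was called without control replicate 2, control replicate 3 or knockout replicate 3. In those fits limma called 33 of 15416, 47 of 15498 and 24 of 15081 tested named genes. With all animals it called 627 of 16451. Fcrla and Ebf1 could be fitted only without control replicate 1 or knockout replicate 2, whose spots were already missing for them, so these fits do not bear on how far their calls rest on an animal. With outlier spots kept, these 5 genes stayed called (limma adjusted p from 0.0181 to 0.0440), whereas Fcrla and Ebf1 did not. Tnfrsf17 lost its call with median centring (limma adjusted p = 0.0512), quantile normalization (0.0604) and no filter on dim probes (0.0734). Without that filter Tgfb1 (0.0714), Fcrla (0.0772) and Ebf1 (0.0746) lost theirs too, and Fcrla also with median centring (0.0541).

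Markers of other cells gave the background for these genes. Of 15 tested T cell markers 11 were lower; their differences spanned -0.81 to 0.29 around a median of -0.24, and 0 were called (1 with an unadjusted p under 0.05). Of 9 macrophage markers 8 were lower (median -0.75, 0 called, 5 with an unadjusted p under 0.05), and of 7 pan-leukocyte markers 6 (median -0.48, 0 called, 2 with an unadjusted p under 0.05). Of 8 neutrophil markers 6 were called lower (Retnlg, S100a8, Mmp8, S100a9, Cxcr2 and Camp) and Ltf, which glands also make, was called higher, with a list median of -2.83. All 8 fibroblast markers were lower (median -0.52, Pdgfrb called), all 9 tested colon epithelium markers were higher (median 1.16, 0 called, 2 with an unadjusted p under 0.05), 5 of 7 tuft cell markers were higher (median 0.55, Trpm5 called) and 2 of 3 plasmacytoid dendritic cell markers were lower (median -0.30, 0 called, 2 with an unadjusted p under 0.05). These values also depended on single animals. The neutrophil list had 0 of 6 tested markers called without control replicate 2, 1 of 6 without control replicate 3 and 1 of 7 without knockout replicate 3. Over all tested named genes those fits called 33 of 15416, 47 of 15498 and 24 of 15081, against 627 of 16451 with all animals. The neutrophil median ranged from -4.10 to -1.51 over the 6 fits with an animal left out. No fibroblast marker was called in any of these 6 limma fits, and tuft cell markers were called in only 2 of them, those lacking control replicate 1 or knockout replicate 2. The median ranged from -0.47 to -0.00 for T cell, from -1.02 to -0.58 for macrophage, from -0.80 to -0.22 for pan-leukocyte and from 0.53 to 1.63 for colon epithelium markers. The part of these shifts in the differences of the B lineage genes was not tested.

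The genes most like Cd79a over the 6 arrays, by root mean square difference of centred log2 levels among 13354 named genes, were Gm13012 (0.14), Lipc (0.16), Fcrl1 (0.17), Siglecg (0.17) and Gpr18 (0.17), where the median gene differed by 1.24. Fcrl1 and Siglecg, at ranks 3 and 4, are B cell surface receptors. Of these 5 genes only Fcrl1 was in the B lineage lists. Those most like Jchain, with its outlier spots kept, were Tmem165 (0.05), Pgrmc2 (0.06), Nepro (0.06), Rpain (0.07) and Zfp266 (0.07) against a median of 0.36. Among the members, again with outlier spots kept, the closest pair was Mzb1 and Pou2af1 (0.18), followed by Cr2 and Pax5 (0.18). The most distant pair was Cd79a and Blnk (1.31).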

How the data were processed

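The authors deposited 1 Agilent Feature Extraction file per animal (version 11.5.1.1, array design 074809, per the file headers; the submitters' processing notes name version 10.7). Per the file headers, the processed signal is a linear intensity from which background was subtracted, with spatial and multiplicative detrending and no dye normalization. The labels name Cy3 and a green column, whereas the files hold red columns, which were used. The deposited value table holds the same intensity values per probe (log2 correlation at least 0.999999) and served as an alternative.

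Signals were converted to log2 and scaled to the 75th percentile of the 59305 non-control spots. Spots marked as non-uniform or population outliers were set to missing in the test. They were kept for the spread, the order of animals, the list medians by animal and the member pairs. A probe was tested if well above background on all arrays of 1 group with at least 2 usable values in each. The genotype test was two-sided (limma 3.58.1, functions lmFit and eBayes, under R 4.3.3), with Benjamini-Hochberg adjustment over all probes; 3 arrays per group limit the precision. The procedure was tested on simulated data. Probes were named through RefSeq accessions (GRCm38.p6), which matched 33767 probes (59.7%); the array design uses mm9, so no probe position is given. Replicate numbers follow the order of deposition and only name animals. A gene is represented by its brightest tested probe.

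The genes named were the members, Islr, called and extreme genes of each B lineage list, called genes of the cell type lists, and the 5 profiles nearest to Cd79a and to Jchain; a few more list genes (Xbp1, Prdm1, Pigr) were added after their values were seen. Members and lists were chosen with earlier results of these data known. The alternatives were normexp background correction with an offset of 50, median centring, quantile normalization, no filter on dim probes, array weights, the value table, outlier spots kept and leaving out each animal.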

Additional observations from a re-analysis of the deposited data

How the results depend on the processing

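No member probe was called by limma under any of the 7 alternatives on all arrays or the 6 fits with an animal left out. The median difference of the members ranged from -1.12 to -0.48 over those 7 alternatives and from -1.27 to -0.33 without 1 animal. Both ends of the latter range came from fits with 5 tested members. Blnk, Cd79a, Cd79b, Ms4a1, Mzb1, Pax5, Pou2af1 and Jchain kept their direction wherever they were tested; Cr2 ranged from -0.94 to 0.22 without 1 animal. For Blnk and Ms4a1 the fits without 1 animal left out only spots that were already missing, so their direction could not change there. The number of called probes over the whole array was 1403, and 2558 with normexp (51.1% higher in the knockout against 39.1%), 2249 with median centring, 2185 with quantile normalization, 484 without the filter on dim probes and 7320 with array weights, and from 40 to 2114 without 1 animal. Jchain ranged from -0.54 to -0.36 over the alternatives, with adjusted p from 0.0544 to 0.302. The cause of these shifts was not tested. No paired analysis was possible because the labels give no replicate numbers. With 3 arrays per group the number of arrays limits the precision.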

Other observations

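Of 96 tested genes in the member and B lineage lists, 21 lacked at least 1 array through these marks, and for 3 of these 21 (14.3%) the log2 difference moved by more than 0.5 when the spots were kept. Over all tested named genes this was 96 of 2792 (3.44%). The 3 were Fcrla, Ebf1 and Ms4a1, each of which had lost control replicate 1, the control with the lowest B cell genes. Among the 11 member probes the marks fell 4 times on knockout replicate 1, 3 times on control replicate 1, and once each on knockout replicates 2 and 3. The difference in share was not tested.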
